A study of Homo sapiens with 43 samples.

Results

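The genes described here are 34 known transcriptional targets of the tumour suppressor p53, matched by gene symbol to 34 of the 58780 Ensembl genes in the gene tables. All 34 had enough counts to enter every fit, although PLK2 and GDF15 lay under 1 CPM (estimated counts relative to library size, scaled between libraries by the trimmed mean of M values) in all GM12878 control libraries of the stimulus panel. They were followed across the 43 RNA-seq libraries and 22 groups of a study that asked how the ATPases of the BAF chromatin remodelling complex bear on the response of cultured human cells to outside stimuli. GM12878 is a B-lymphoblastoid line, and HepG2 is a line derived from a liver tumour. BRM014 inhibits SMARCA4 and SMARCA2, the alternative ATPases of BAF. The labels name no engineered allele in any group, and every group of a line is that same line.

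The stimulus panel held 15 GM12878 libraries taken after 6 h. Doxorubicin (Dox, 500 nM) had 1 library. Dexamethasone (Dex, 500 nM), interferon gamma (IFNg, 100 ng/mL), interleukin 2 (IL2, 50 U/mL), lipopolysaccharide (LPS, 10 ng/mL) and tumour necrosis factor alpha (TNF, 25 ng/mL) had 2 libraries each, and so did the DMSO and PBS vehicles. The pretreatment experiment held 24 GM12878 libraries, 2 for each of 12 groups: cells received BRM014 (10 µM) or DMSO for 30 min and then Dex, IFNg or vehicle for 1 h or 6 h. HepG2 cells received BRM014 (10 µM) or DMSO for 24 h, with 2 libraries each.

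The p53 protein is a transcription factor that is held at a low level by the ubiquitin ligase MDM2 and accumulates when DNA is damaged. It binds response elements made of a pair of decamers and raises genes that stop the cell cycle, repair DNA, start apoptosis, adjust metabolism and, through MDM2 and PPM1D, switch p53 off again. Doxorubicin intercalates into DNA and poisons topoisomerase II, which leaves DNA breaks. Dexamethasone activates the glucocorticoid receptor, and IFNg is a cytokine that induces immune genes.

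Library depth was 12910315 to 22939912 estimated counts in GM12878 and 3055377 to 19910491 in HepG2, where BRM014 replicate 2 was the shallowest. B cell markers (8 genes) summed to 56.0 to 66.2 CPM in BRM014-treated HepG2 libraries, 173 to 187 CPM in DMSO-treated HepG2 libraries, and 10263 to 13768 CPM in GM12878. Liver markers (8 genes) summed to 18549.9 to 19666 CPM in BRM014-treated HepG2 cells and 37753 to 40284 CPM in DMSO-treated HepG2 cells, against 1.47 to 3.97 CPM in GM12878. Both lines thus carried the markers of their labelled origin. Markers of T cells (5 genes) summed to 34.2 to 77.3 CPM in GM12878, where CD2, CD3D and CD8A stayed under 1 CPM, and the 4 monocyte markers stayed under 1 CPM there. The labels do not say that the 2 libraries of a group came from separate cultures, so every p-value measures the spread between these libraries, which may be technical.

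Response elements near the members show where p53 could bind. The p53 response element consensus, a pair of decamers with no spacer and 20 bases in all, was searched on both strands within 2500 bases either side of the RefSeq transcription start (RefSeq promoter table, GRCh38.p14, the same build as hg38), with the core C and G of each decamer required and at most 2 mismatches elsewhere. Of the members, 26 matched the promoter table, and 14 of these 26 (53.8%) held a match, against 4.05% of all 27305 genes in the table. With no mismatch allowed the share was 7.69% of members, namely PLK2 and ZMAT3, and 0.106% of all genes. The members are known p53 targets, so these shares are no independent evidence, and a match is a description, not a shown binding site. The 7 elements printed here belong to members that the results turn on, with the required C and G in capitals, read 5′ to 3′ on the strand of the gene.
CDKN1A: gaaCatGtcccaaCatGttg
MDM2: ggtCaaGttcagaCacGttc
PLK2: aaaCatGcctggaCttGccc
ZMAT3: aaaCaaGtccagaCatGcct
EDA2R: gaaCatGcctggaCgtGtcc
FAS: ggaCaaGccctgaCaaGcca
BTG2: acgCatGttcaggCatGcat
In hg38 the CDKN1A element lies at chr6:36676449-36676468 on the plus strand, 2265 bases before the RefSeq start, and overlaps an annotated exon of an upstream CDKN1A transcript. The MDM2 element (chr12:68808923-68808942, plus strand) lies 751 bases after the start in an intron. The PLK2 element (chr5:58462274-58462293, minus strand) lies 2207 bases before the start, outside the gene. The ZMAT3 element (chr3:179070188-179070207, minus strand) and the EDA2R element (chrX:66638713-66638732, minus strand) are intronic, 1602 and 537 bases after the starts. The FAS element (chr10:88991309-88991328, plus strand) overlaps an annotated exon 511 bases after the start, where ACTA2 runs on the opposite strand. The BTG2 element (chr1:203303642-203303661, plus strand) lies 1877 bases before the start, inside the divergent transcript BTG2-DT.

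In vehicle-treated cells the members spanned a wide range. Levels between genes are compared per length, in the authors' TPM (transcript abundance relative to the library, corrected for length). In the 4 vehicle libraries of the GM12878 panel CDKN1A had the highest median of the members, at 182 TPM, followed by BTG2 at 118 TPM and CCNG1 at 110.2 TPM. PLK2 had the lowest median, at 0.365 TPM. In the 2 DMSO-treated HepG2 libraries the order differed: GDF15, a secreted stress cytokine, led with a median of 588 TPM, against 0.9 TPM in GM12878 vehicle libraries. FAS had a median of 5.51 TPM in HepG2 DMSO libraries and 41.7 TPM in GM12878 vehicle libraries. These levels across lines are a description, since the lines were treated and sequenced as separate experiments.

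Doxorubicin was the DNA-damaging arm of the panel. With 1 library there is no replicate check, so the Dox values are set beside the vehicle libraries with no test. All 34 members were highest in the Dox library among the 15 panel libraries, where 14% of the 15775 genes tested were highest in it. Of the 34, 22 lay more than 2-fold above the mean of the 4 vehicle libraries and above each of them, on the log2(CPM + 1) scale, and 0 lay that far below (0.139% of all genes did). Only 64 genes, 0.406% of those tested, passed the same bound upward. The median log2 ratio was 1.25 for the members and -0.01 for all genes tested. The members were chosen with earlier results of these data known, so these shares are a description. In bulk RNA a change in the share of cells and a change in the RNA per cell cannot be told apart, here and in every later comparison.

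**Figure D1:**
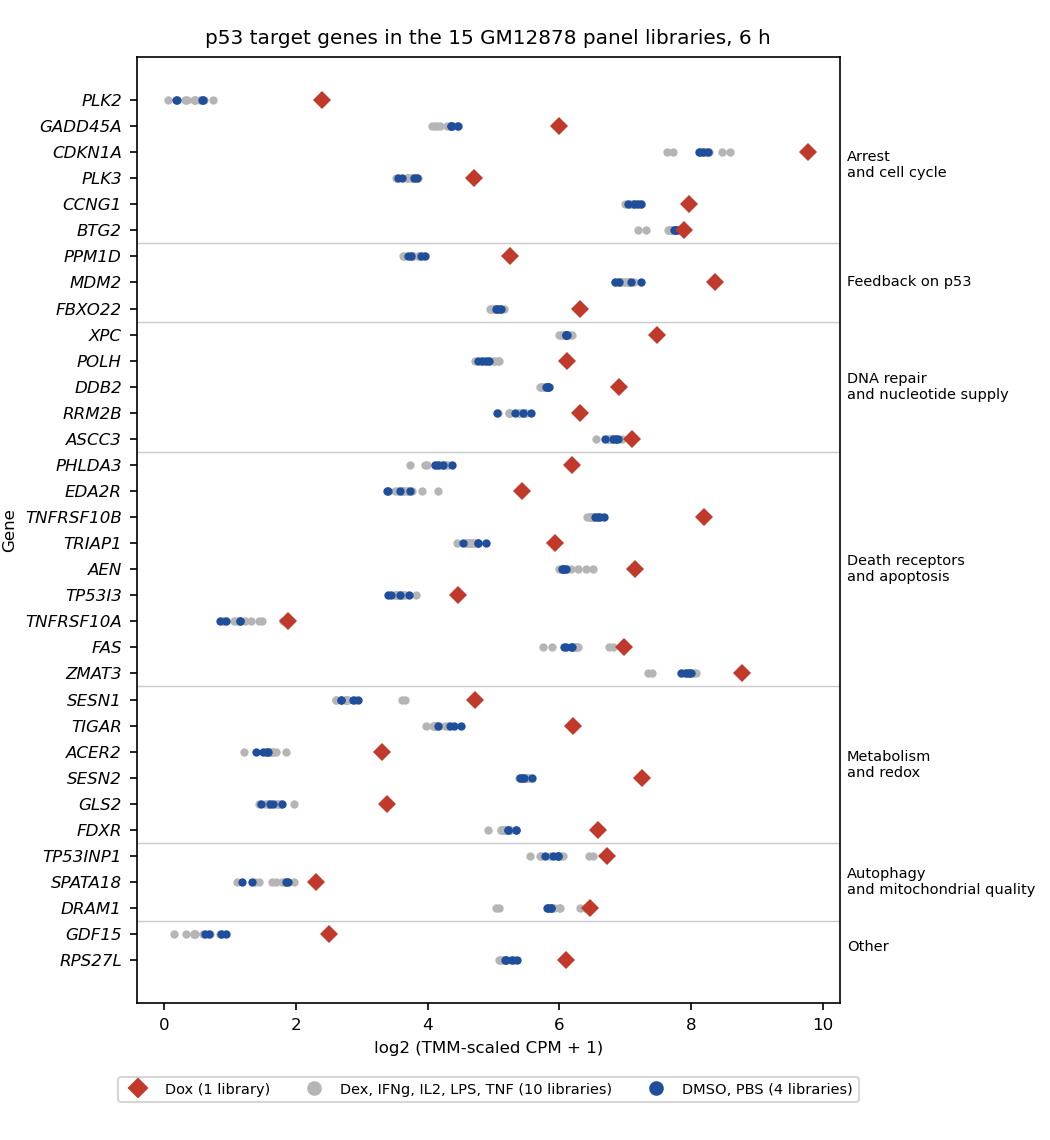
Level of each p53 target gene in the 15 GM12878 panel libraries after 6 h, as log2(CPM + 1) on the horizontal axis, with 1 point per library and genes grouped by role down the page. The diamond of the single Dox library lies furthest right for all 34 genes, from BTG2, where it nearly touches the vehicle points, to PLK2 and PHLDA3.

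Among the arrest genes, CDKN1A encodes p21, the inhibitor of cyclin-dependent kinases (ENSG00000124762.13, chromosome 6, 36676460 to 36687337). It had 873 CPM in the Dox library, 277 and 279 CPM in the DMSO libraries, and 305 and 289 CPM in the PBS libraries, a log2 ratio of 1.60. GADD45A, a stress sensor that slows the cell cycle and aids repair, had 62.5 CPM in the Dox library and 19.5 to 21.1 CPM in the vehicle libraries. PLK2, a stress-responsive Polo-like kinase, had 4.25 CPM in the Dox library and 0.131 to 0.499 CPM in the vehicle libraries, a log2 ratio of 1.99 that rests on 87 counts in the Dox library and is 3.38 with a pseudocount of 0.1 CPM in place of 1 CPM. The kinase PLK3 was at 25.1 CPM in the Dox library and 10.8 to 13.3 CPM in vehicle. CCNG1, a cyclin that recruits a phosphatase to MDM2, stayed under 2-fold with a log2 ratio of 0.81. BTG2, an antiproliferative gene that also responds early to growth signals, had the smallest ratio of all members, 0.13, with 237 CPM in the Dox library and 212 to 221 CPM in vehicle.

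All 3 members that feed back on p53 passed 2-fold. MDM2 had 328 CPM in the Dox library, 150.0 and 135 CPM in the DMSO libraries and 119 and 114 CPM in the PBS libraries, a log2 ratio of 1.34. PPM1D, a phosphatase that removes activating phosphates from p53 and its kinases, had a ratio of 1.42, and FBXO22, part of a ubiquitin ligase for p53, 1.24. Of the 5 repair genes, XPC and DDB2, which detect ultraviolet lesions, and POLH, a polymerase that bypasses them, passed 2-fold at 1.38, 1.09 and 1.26. XPC was at 178 CPM in the Dox library and within 67.5 to 67.9 CPM in the vehicle libraries. RRM2B, which supplies deoxynucleotides, lay just short of the bound at 0.96, while PLK3 lay just inside it at 1.00. The helicase gene ASCC3 had a ratio of 0.28.

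The death genes differed in size. PHLDA3, which blocks AKT at the membrane, had 72.2 CPM in the Dox library and 16.3 to 19.7 CPM in vehicle, a log2 ratio of 1.97. EDA2R, a death-domain receptor of the tumour necrosis factor family, had 42.0 CPM in the Dox library and 9.46 to 12.3 CPM in vehicle. TNFRSF10B, the TRAIL receptor DR5, had 292 CPM in the Dox library and 91.7 to 101 CPM in vehicle. The apoptosis inhibitor gene TRIAP1 and the nuclease gene AEN also passed 2-fold, so that 5 of 9 did. FAS had a ratio of only 0.85: its 125 CPM in the Dox library compare with 66.1 to 72.2 CPM in vehicle and up to 111 CPM in an IFNg library. ZMAT3, an RNA-binding regulator of splicing, was at 434 CPM in the Dox library and 229 to 254 CPM in vehicle.

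Every one of the 6 metabolic members passed 2-fold. SESN1 and SESN2 encode sestrins, which restrain mTORC1. SESN1 had 25.4 CPM in the Dox library and 5.42 to 6.70 CPM in vehicle, and SESN2 152 CPM in the Dox library and 41.2 to 47.2 CPM in vehicle. TIGAR, which lowers glycolytic flux, had 72.4 CPM in the Dox library and 16.9 to 21.6 CPM in vehicle, a log2 ratio of 1.84. ACER2, a ceramidase of the Golgi, had 8.89 CPM in the Dox library and 1.62 to 2.00 CPM in vehicle, a log2 ratio of 1.80. GLS2, a mitochondrial glutaminase, had a ratio of 1.74, and FDXR, a mitochondrial reductase, 1.30. None of the 3 autophagy and mitochondrial quality genes passed: DRAM1 had a ratio of 0.61, SPATA18 0.72 and TP53INP1 0.80. GDF15 had a ratio of 1.71 from 95 counts in the Dox library, or 2.53 with a pseudocount of 0.1 CPM, and the ribosomal protein paralogue RPS27L 0.85.

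Of 32 other p53 targets tested, 4 passed 2-fold and 23 were highest in the Dox library, with a median ratio of 0.57; both lists were chosen with earlier results of these data known. Among them BBC3, which encodes the BH3-only protein PUMA, had 34.6 CPM in the Dox library and 9.06 to 10.6 CPM in vehicle. Of 12 p53 regulators, 0 passed 2-fold and 4 were lowest in the Dox library (12.9% of all genes were), with a median ratio of -0.11. Of 16 genes known to fall in p53-dependent arrest, 15 were lowest in the Dox library, as were 12.9% of all genes, and 2 passed 2-fold downward. PLK1, the mitotic kinase, had 24.7 CPM in the Dox library and a mean of 69.3 CPM in vehicle, and CCNB1, the mitotic cyclin, had 26.1 CPM in the Dox library and a mean of 56.5 CPM in vehicle.

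**Figure D2:**
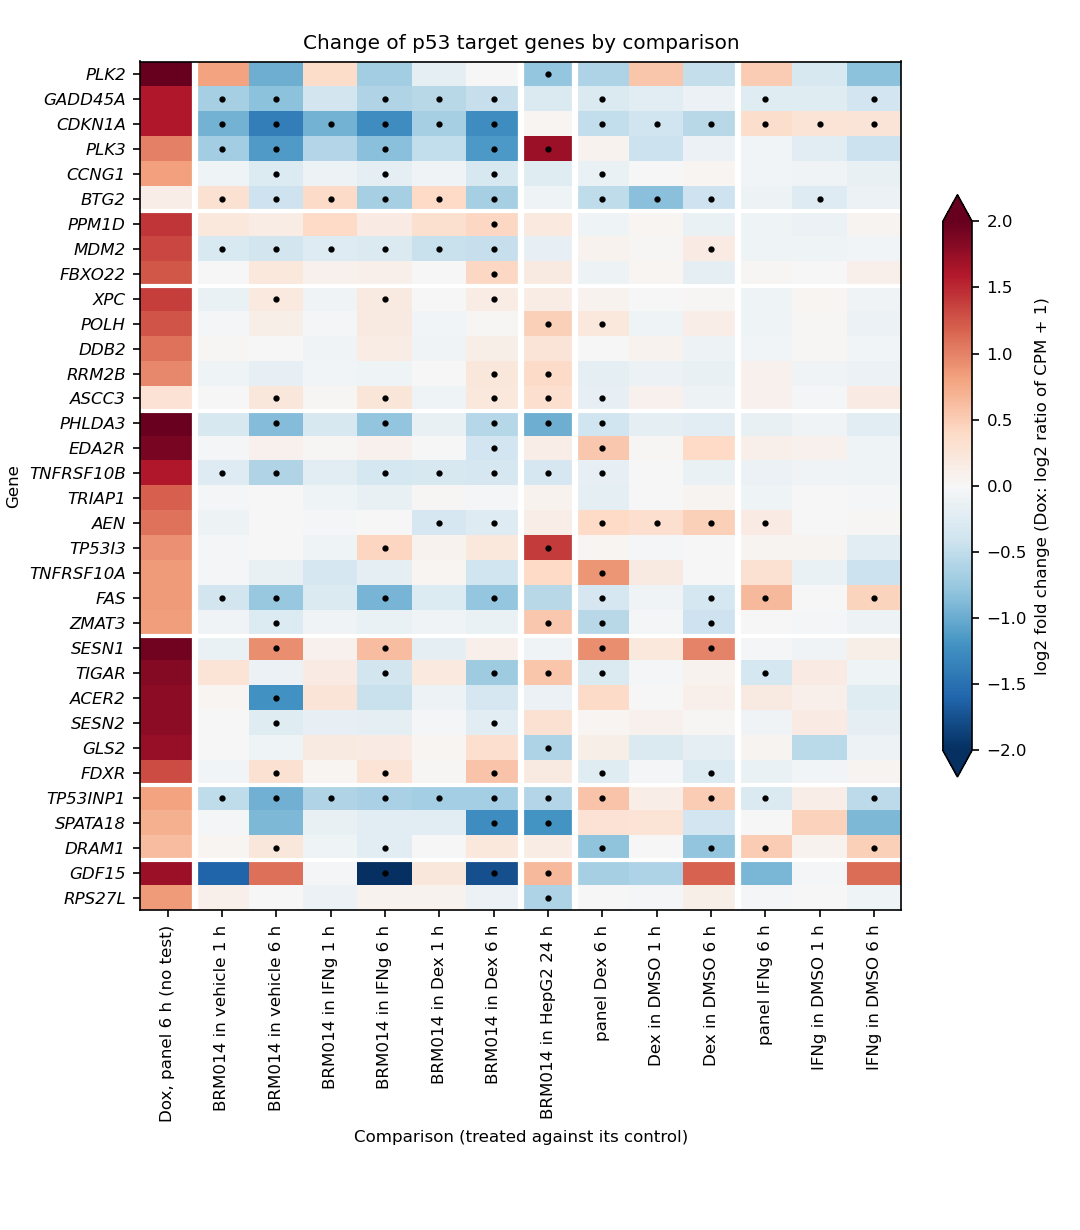
Change of the 34 p53 target genes (vertical axis, by role) in 14 comparisons (horizontal axis), each treated group against its own control, as log2 fold change by colour, with the scale ending at 2 in either direction. Dots mark an adjusted p under 0.05 in edgeR, which the Dox column cannot have; Dox is red throughout, while the BRM014 and Dex columns mix red and blue.

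BRM014 was tested in GM12878 against DMSO in each arm, with edgeR's quasi-likelihood test and Benjamini-Hochberg adjustment over all 15183 genes, a gene being called at an adjusted p under 0.05. After 6 h in the vehicle arm 13 members were lower and 5 higher, where 20.1% of all genes were lower and 18.4% higher. The IFNg arm also had 13 lower and 5 higher (18.7% and 15% of all genes), and the Dex arm had 16 lower and 6 higher (20.6% and 17.1%). The members' median log2 fold change was -0.13, -0.18 and -0.24 in the vehicle, IFNg and Dex arms, where that of all genes was 0.01 in each. Lower in all 3 arms at 6 h were 10 members: CDKN1A, BTG2, GADD45A, CCNG1, PLK3, MDM2, FAS, TNFRSF10B, PHLDA3 and TP53INP1, where 12.4% of all genes were lower in all 3. XPC, ASCC3 and FDXR were higher in all 3, where 8.81% of all genes were. The 3 arms share no libraries, but they come from 1 experiment.

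CDKN1A had the largest fall among members with at least 1 CPM. It had 101 and 108 CPM with BRM014 and 282 and 264 CPM with DMSO in the 6 h vehicle arm, a log2 fold change of -1.39 ± 0.0638 (standard error, n = 2 libraries each; edgeR adjusted p = 2.92e-17). In the IFNg arm it had 133 and 143 CPM with BRM014 and 314 and 337 CPM with DMSO, and in the Dex arm 73.2 and 84.0 CPM with BRM014 and 191 and 181 CPM with DMSO. In all 3 arms the BRM014 and DMSO libraries were far apart, and the folds in the IFNg and Dex arms were both -1.24. MDM2 had 98.4 and 92.3 CPM with BRM014 and 118 and 127 CPM with DMSO in the vehicle arm, a smaller fall of -0.37 ± 0.0586 (edgeR adjusted p = 6.99e-06), again with no overlap. It had 97.4 and 95.4 CPM with BRM014 and 114 and 122 CPM with DMSO in the IFNg arm (-0.29, edgeR adjusted p = 0.000251). In the Dex arm it had 104 and 97.0 CPM with BRM014 and 139 and 137 CPM with DMSO (-0.46, edgeR adjusted p = 1.69e-07).

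The other arrest and death genes that fell spanned a range of sizes in the 6 h vehicle arm. PLK3 had 4.93 and 5.72 CPM with BRM014 and 12.5 and 11.0 CPM with DMSO (log2 fold change -1.13, edgeR adjusted p = 3.16e-06). TP53INP1, which promotes autophagy and p53 phosphorylation, had 31.4 and 27.6 CPM with BRM014 and 53.1 and 61.1 CPM with DMSO (-0.96, edgeR adjusted p = 3.75e-07). PHLDA3 had 8.11 and 8.33 CPM with BRM014 and 15.0 and 14.8 CPM with DMSO (-0.86, edgeR adjusted p = 8.53e-07). In each of these genes both BRM014 libraries lay under both DMSO libraries. FAS had 52.1 and 48.3 CPM with BRM014 and 81.6 and 109 CPM with DMSO in the IFNg arm (-0.93, edgeR adjusted p = 3.2e-08). In the Dex arm it had 32.8 and 31.6 CPM with BRM014 and 58.5 and 51.5 CPM with DMSO (-0.78, edgeR adjusted p = 1.44e-06). PLK3 had 4.64 and 5.13 CPM with BRM014 and 10.07 and 11.6 CPM with DMSO in the Dex arm (-1.14), and PHLDA3 had 7.49 and 7.36 CPM with BRM014 and 12.4 and 13.3 CPM with DMSO in the IFNg arm (-0.79). In the vehicle arm GADD45A fell by 0.82, FAS by 0.76, TNFRSF10B by 0.60, BTG2 by 0.41, CCNG1 by 0.28 and ZMAT3 by 0.27 on the log2 scale.

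SESN1 went the other way. It had 11.0 and 10.54 CPM with BRM014 and 5.61 and 5.65 CPM with DMSO in the 6 h vehicle arm (log2 fold change 0.93 ± 0.146, edgeR adjusted p = 5.65e-06), and 9.07 and 9.71 CPM with BRM014 and 6.16 and 6.10 CPM with DMSO in the IFNg arm (0.61, edgeR adjusted p = 0.002). In the Dex arm it had 11.8 and 12.2 CPM with BRM014 and 11.97 and 10.3 CPM with DMSO and was not called. In the Dex arm FBXO22 had 37.9 and 37.7 CPM with BRM014 and 28.4 and 28.5 CPM with DMSO (0.41), and FDXR had 40.4 and 45.6 CPM with BRM014 and 27.9 and 30.2 CPM with DMSO (0.57). TIGAR had 12.02 and 12.4 CPM with BRM014 and 18.6 and 21.8 CPM with DMSO there (-0.72). The metabolic genes therefore held both directions: in the vehicle arm 2 of 6 were higher and 2 lower. Of the 5 repair genes 2 were higher there, and the others were not called.

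Of the 18 calls in the 6 h vehicle arm, 12 held in every alternative: CDKN1A, BTG2, GADD45A, CCNG1, PLK3, MDM2, FAS, TNFRSF10B, PHLDA3, ZMAT3, SESN1 and TP53INP1. ACER2, SESN2, XPC, DRAM1, ASCC3 and FDXR each lost the call without at least 1 library. Without BRM014 replicate 2 the edgeR adjusted p was 0.162 for ACER2, 0.0707 for XPC, 0.0957 for ASCC3, 0.0587 for FDXR and 0.205 for DRAM1. Without DMSO replicate 2 it was 0.0879 for ACER2, 0.0848 for XPC, 0.28 for SESN2 and 0.197 for DRAM1. Without DMSO replicate 1 it was 0.137 for ASCC3, and without BRM014 replicate 1 it was 0.289 for SESN2. In the IFNg arm 9 of 18 calls and in the Dex arm 13 of 22 calls held in every alternative. XPC, ASCC3, PLK3, CCNG1 and FDXR were among those lost in the IFNg arm, without DMSO replicate 2 (adjusted p 0.0581 for XPC, 0.0673 for PLK3, 0.556 for CCNG1, 0.131 for FDXR), without BRM014 replicate 2 (0.172 for XPC, 0.109 for ASCC3, 0.212 for CCNG1, 0.211 for FDXR) or without DMSO replicate 1 (0.083 for XPC). In the Dex arm GADD45A, XPC and ASCC3 were lost without BRM014 replicate 1 (0.105, 0.125 and 0.105), ASCC3 and XPC without DMSO replicate 1 (0.118 and 0.222), and XPC without either library numbered 2 (0.0867 without BRM014 replicate 2 and 0.101 without DMSO replicate 2). GDF15 was called lower in the IFNg and Dex arms on 1 to 5 counts in each BRM014 library and 6 to 13 in each DMSO library, so its folds are not given.

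Regulators of p53 moved as well. MDM4, the p53 inhibitor related to MDM2, fell by 0.26 on the log2 scale in the 6 h vehicle arm. It was not called in the Dex arm (-0.04, edgeR adjusted p = 0.742). Among the 12 p53 regulators CHEK2 (1.36) and CHEK1 (0.59), the checkpoint kinases, were higher in the vehicle arm, but the list went both ways. In the Dex arm HIPK2 was lower (-0.78, edgeR adjusted p = 1.77e-10), and CHEK2 (1.29) and TP53BP1 (0.47) were higher, among others. Of the BRM014 targets themselves, SMARCA4 mRNA was higher (0.29, 0.25 and 0.34 in the vehicle, IFNg and Dex arms) and SMARCA2 mRNA lower (-0.44, -0.42 and -0.90). Dex raised SMARCA2 mRNA in DMSO-treated cells (0.86 at 6 h), and its interaction with BRM014 was called (-0.46, edgeR adjusted p = 1.56e-05). Of 31 other p53 targets tested, 13 were lower and 3 higher in the vehicle arm, with a list median of -0.14. The 3 with the smallest adjusted p were E2F7 (-1.15), IER5 (-0.70) and FBXW7 (-0.49). Of the 16 genes that fall in p53-dependent arrest, 3 were higher (E2F1 0.70, CDK1 0.28 and RRM2 0.22) and 0 lower. B cell markers summed to 10263 to 12195.5 CPM in the 6 BRM014 libraries at 6 h and 10807 to 12539.8 CPM in the 6 DMSO libraries, T cell markers to 34.2 to 43.6 CPM with BRM014 and 57.3 to 73.1 CPM with DMSO, and fibroblast markers to 1.87 to 2.95 CPM with BRM014 and 4.22 to 12.5 CPM with DMSO. Their part in the falls was not tested.

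**Figure D3:**
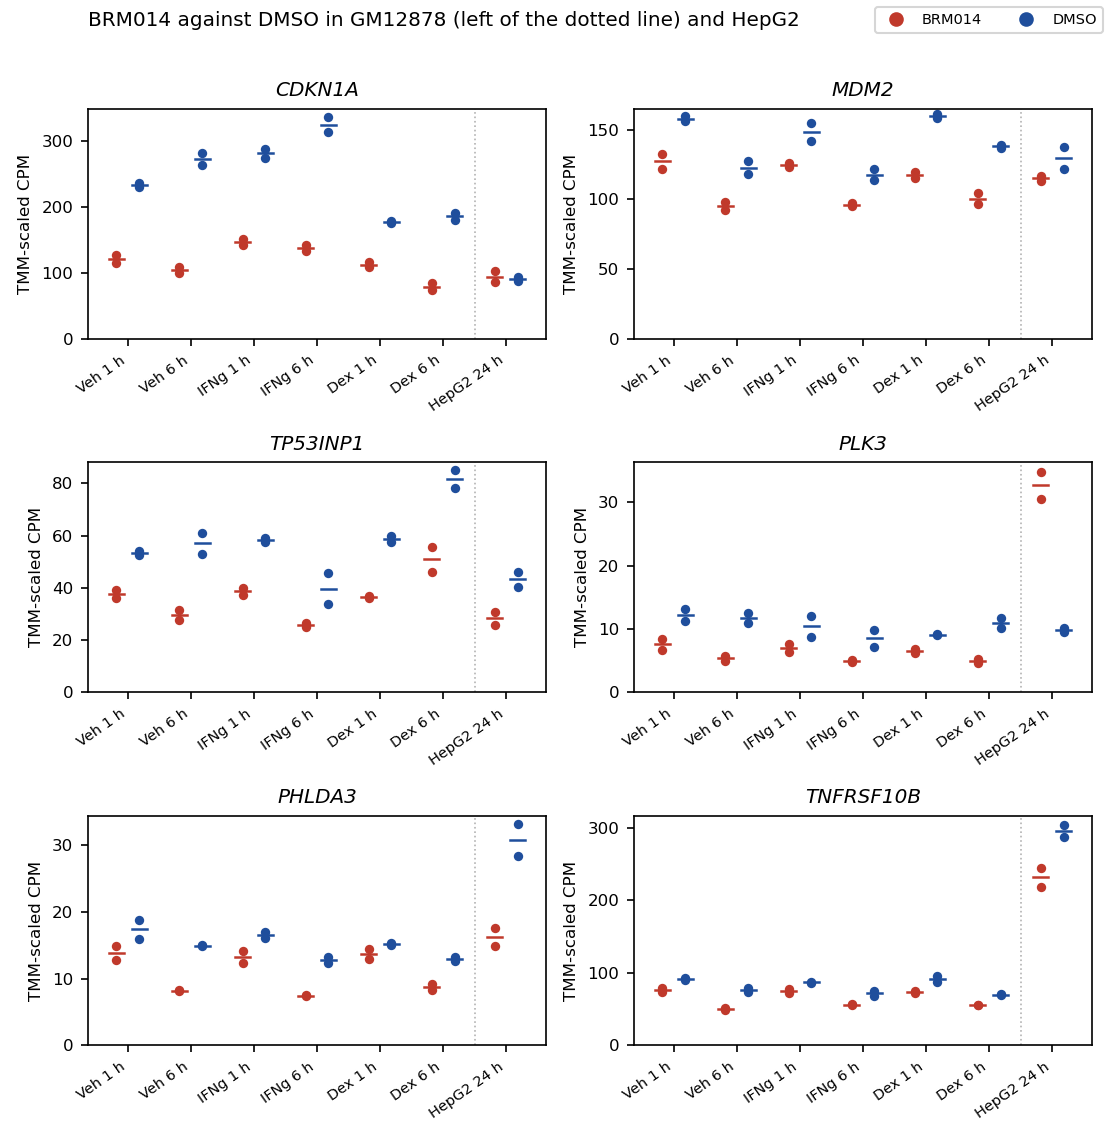
CPM (vertical axis) of 6 p53 target genes with BRM014 (red) beside DMSO (blue) in each arm and time of GM12878 and in HepG2 at 24 h (right of the dotted line), with 1 point per library and a bar at the mean. CDKN1A is lower with BRM014 in every GM12878 arm, and PLK3 is lower in GM12878 and higher in HepG2.

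After 1 h BRM014 changed fewer genes than after 6 h, CDKN1A and MDM2 among them. Of the 34, 7 were lower and 1 higher in the vehicle arm, where 1.46% of all genes were lower and 0.599% higher. In the IFNg arm 3 were lower and 1 higher (1.58% and 0.619% of all genes), and in the Dex arm 6 lower and 1 higher (1.33% and 0.58%). CDKN1A, MDM2 and TP53INP1 were lower in all 3 arms, as were 0.659% of all genes. CDKN1A had 114 and 128 CPM with BRM014 and 231 and 237 CPM with DMSO in the vehicle arm (log2 fold change -0.95, edgeR adjusted p = 8.72e-12), 143 and 152 CPM with BRM014 and 275 and 289 CPM with DMSO in the IFNg arm (-0.94), and 116 and 109 CPM with BRM014 and 176 and 179 CPM with DMSO in the Dex arm (-0.66). The libraries of each arm did not overlap.

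MDM2 had 133 and 122 CPM with BRM014 and 160.3 and 156 CPM with DMSO in the 1 h vehicle arm (-0.31, edgeR adjusted p = 0.000903), and 116 and 119.8 CPM with BRM014 and 162 and 159 CPM with DMSO in the Dex arm (-0.44, edgeR adjusted p = 3.89e-06). In the IFNg arm it had 123 and 126 CPM with BRM014 and 155 and 142 CPM with DMSO (-0.25, edgeR adjusted p = 0.00815). GADD45A had 11.8 and 13.02 CPM with BRM014 and 19.97 and 19.2 CPM with DMSO in the vehicle arm (-0.66, edgeR adjusted p = 0.000306). TP53INP1 had 39.0 and 36.1 CPM with BRM014 and 54.0 and 52.7 CPM with DMSO there (-0.51), and 36.1 and 36.8 CPM with BRM014 and 59.7 and 57.7 CPM with DMSO in the Dex arm (-0.69). In the vehicle arm PLK3 had 8.43 and 6.65 CPM with BRM014 and 11.2 and 13.1 CPM with DMSO (-0.70). BTG2 was higher in all 3 arms at 1 h, as were 0.283% of all genes: in the Dex arm it had 149.8 and 154 CPM with BRM014 and 115 in both DMSO libraries (0.41, edgeR adjusted p = 8.69e-06), and in the IFNg arm 221 and 229 CPM with BRM014 and 174 and 171 CPM with DMSO (0.38, edgeR adjusted p = 1.12e-05). Many of the 1 h calls were thin. In the vehicle arm only CDKN1A and GADD45A held in every alternative: without BRM014 replicate 2 the adjusted p was 0.052 for MDM2, 0.29 for PLK3 and 0.156 for TP53INP1, without DMSO replicate 2 it was 0.0941 for BTG2, 0.285 for PLK3 and 0.075 for TP53INP1, and without DMSO replicate 1 it was 0.111 for TP53INP1. In the IFNg arm MDM2 reached 0.348 without DMSO replicate 1, 0.123 without BRM014 replicate 1 and 0.0528 without BRM014 replicate 2, and TP53INP1 0.0504 without BRM014 replicate 1.

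Whether the effect of BRM014 differed between 6 h and 1 h was tested directly, as the mean over the 3 arms, after the opposite calls of BTG2 had been seen. The effect was more negative at 6 h for 9 members, with BTG2 counted among them, and more positive for 5, where 21% of all genes were more negative and 17.2% more positive. BTG2 had prompted the comparison, so its difference of -0.95 ± 0.0440 on the log2 scale is a description, with no test. CDKN1A (-0.44), TIGAR (-0.60), FAS (-0.52) and PHLDA3 (-0.48) differed downward, as did ACER2 (-0.73, adjusted p as high as 0.179 without single libraries), and SESN1 (0.62), FDXR (0.38), ASCC3 (0.25) and XPC (0.24) differed upward. MDM2 showed no called difference (-0.04, edgeR adjusted p = 0.587), and neither did GADD45A (-0.10) or TP53INP1 (-0.16).

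In HepG2 after 24 h of BRM014, 8 of the 34 members were higher and 7 lower. That lay near the shares of all 13349 genes tested, of which 19.3% were higher and 22.8% lower. The members' median log2 fold change was 0.13, against -0.01 for all genes. PLK3 had 30.5 and 34.8 CPM with BRM014 and 10.2 and 9.52 CPM with DMSO (log2 fold change 1.71 ± 0.155, n = 2 libraries each; edgeR adjusted p = 1.35e-07). TP53I3, an oxidoreductase linked to p53-dependent cell death, had 39.4 and 44.6 CPM with BRM014 and 17.1 and 14.6 CPM with DMSO (1.39, edgeR adjusted p = 6.65e-07). GDF15 had 601 and 731 CPM with BRM014 and 464 and 380.0 CPM with DMSO (0.65, edgeR adjusted p = 0.000165). In all 3 genes both BRM014 libraries lay above both DMSO libraries.

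Among the members lower in HepG2, SPATA18, a regulator of mitochondrial quality, had 3.38 and 1.57 CPM with BRM014 and 7.81 and 6.10 CPM with DMSO (-1.20, edgeR adjusted p = 0.00332). The 1.57 CPM rests on few counts, since BRM014 replicate 2 held only 3055377 estimated counts, so the size of this fall is uncertain. PHLDA3 had 14.8 and 17.6 CPM with BRM014 and 33.2 and 28.3 CPM with DMSO (-0.97, edgeR adjusted p = 8.18e-05). RPS27L had 55.9 and 47.4 CPM with BRM014 and 84.6 and 77.3 CPM with DMSO (-0.61, edgeR adjusted p = 0.000331). TP53INP1 fell by 0.58 (edgeR adjusted p = 0.00209). These 4 genes and the 3 highest ones held in every alternative. CDKN1A was not called, with 85.9 and 103 CPM with BRM014 and 93.8 and 86.9 CPM with DMSO (0.03 ± 0.11), and MDM2 was not called either, with 117 and 113 CPM with BRM014 and 122 and 137 CPM with DMSO (-0.17).

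The other 8 HepG2 calls were lost in some alternative. ZMAT3 had 37.8 and 34.5 CPM with BRM014 and 24.8 and 25.3 CPM with DMSO (0.55), with an adjusted p of 0.071 without BRM014 replicate 1. TIGAR (0.56) had 0.201 without DMSO replicate 2, and TNFRSF10B (-0.34) had 0.0689 without BRM014 replicate 2. POLH, RRM2B and ASCC3 (0.47, 0.38 and 0.33) had 0.315, 0.516 and 0.175 without BRM014 replicate 1 and 0.358, 0.205 and 0.154 without DMSO replicate 1. GLS2 (-0.62) had 0.207 and 0.144 without those same libraries. PLK2 (-0.78) had 0.0792 by DESeq2. Other p53 targets in HepG2 were higher for 6 and lower for 10 of 30 tested. The 3 with the smallest adjusted p were SERTAD1 (2.18), NINJ1 (-1.24) and PLXNB2 (-0.85). Of the 16 genes that fall in p53-dependent arrest, 9 were lower (CENPF -0.56 and TOP2A -0.48 among them) and 1 higher (RRM2, 2.18). Beside the lower liver marker sum with BRM014, the 4 monocyte markers summed to 1188 to 1193 CPM with BRM014 and 2876 to 2924 CPM with DMSO, with CSF1R and FCGR3A under 1 CPM, and the 4 fibroblast markers to 85.9 to 86.9 CPM with BRM014 and 36.2 to 37.5 CPM with DMSO, with COL1A2 and DCN under 1 CPM. The part of these marker changes in the members' changes was not tested.

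Setting the lines side by side, TNFRSF10B, PHLDA3 and TP53INP1 were lower with BRM014 in both HepG2 and the 6 h vehicle arm of GM12878 (6.43% of all genes were), and ASCC3 was higher in both (6.47%). The difference between the lines was tested in 1 fit over all 28 libraries of both experiments. Of the members, 8 had a more positive and 2 a more negative effect in HepG2, where 11.2% and 16.5% of 16807 genes did. PLK3 differed most, at 2.77 ± 0.230 (HepG2 minus GM12878, log2; edgeR adjusted p = 1.26e-11). CDKN1A differed by 1.35 ± 0.104 (edgeR adjusted p = 2.07e-12), TP53I3 by 1.35, ZMAT3 by 0.78, SESN1 by -1.05 and RPS27L by -0.64, and these 6 held in every alternative. Line, experiment and exposure time (24 h in HepG2, and 6 h after a 30 min pretreatment in GM12878) cannot be told apart in this difference.

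**Figure D4:**
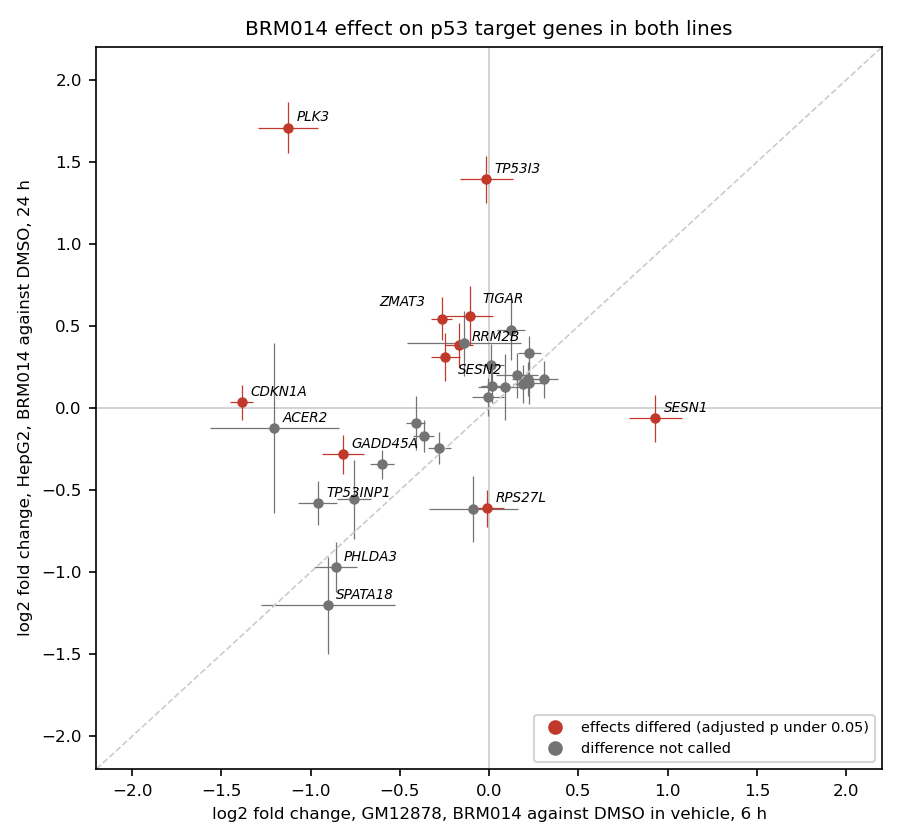
Log2 fold change with BRM014 against DMSO of 32 p53 target genes in HepG2 at 24 h (vertical axis) and in the vehicle arm of GM12878 at 6 h (horizontal axis), with standard errors as bars; PLK2 and GDF15 are left out for their low counts in GM12878. Red marks genes whose effects differed (edgeR adjusted p under 0.05): PLK3 lies highest, at 1.71 in HepG2 and -1.13 in GM12878, and CDKN1A lies on the far left at -1.39 in GM12878 and 0.03 in HepG2.

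Dexamethasone moved members both ways. In the panel 12 were lower and 6 higher against the vehicles, where 12.7% and 13% of all genes were. DRAM1, a lysosomal inducer of autophagy, had 32.9 and 31.9 CPM with Dex, 55.3 and 55.8 CPM with DMSO, and 57.8 and 57.7 CPM with PBS (log2 fold change -0.81 ± 0.0588, n = 2 against 4 libraries; edgeR adjusted p = 4.04e-13). ZMAT3 had 168 and 162 CPM with Dex, 249 and 254 CPM with DMSO, and 240.4 and 229 CPM with PBS (-0.56). BTG2 had 145 and 158 CPM with Dex, 216 and 221 CPM with DMSO, and 214 and 212 CPM with PBS (-0.51). CDKN1A had 211 and 197 CPM with Dex, 277 and 279 CPM with DMSO, and 305 and 289 CPM with PBS (-0.50, edgeR adjusted p = 1.29e-11). None of these Dex libraries overlapped a vehicle library.

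SESN1 was the member that rose most under Dex, with 11.5 and 11.3 CPM, against 6.26 and 5.42 CPM with DMSO and 5.43 and 6.70 CPM with PBS (0.92 ± 0.122, edgeR adjusted p = 2.54e-07). TP53INP1 had 86.0 and 89.7 CPM with Dex, 62.1 and 59.1 CPM with DMSO, and 62.0 and 53.7 CPM with PBS (0.58). EDA2R had 16.8 and 14.1 CPM with Dex, 12.3 and 9.46 CPM with DMSO, and 9.59 and 10.9 CPM with PBS (0.53), and AEN rose by 0.39. FAS fell by 0.33. These 9 genes kept the call in every alternative, and the other 9 calls of the panel were each lost in some, with an adjusted p as high as 0.649 for TNFRSF10A without Dex replicate 2. MDM2 had 132 and 139 CPM with Dex and was not called (0.08), but was called higher against PBS alone (0.22, adjusted p 0.0069). Of the 8 B cell markers, 5 were lower with Dex (CD22 -0.91, PAX5 -0.74, CD79B -0.36, MS4A1 -0.33 and CD79A -0.16) and BLK was higher (0.39), while their sum was 12258.2 to 13327 CPM with Dex and 12257.7 to 13768 CPM with vehicle. T cell markers summed to 56.0 to 59.3 CPM with Dex and 67.2 to 77.3 CPM with vehicle, and fibroblast markers to 7.87 to 8.55 CPM with Dex and 14.02 to 20.4 CPM with vehicle. Their part in the members' changes was not tested.

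The pretreatment experiment gives the Dex response a second time, in cells that had received DMSO. After 6 h 6 members were lower and 4 higher (7.53% and 8.06% of all genes). AEN, SESN1 and TP53INP1 were higher in both experiments, where 6.89% of all genes were, and CDKN1A, BTG2, FAS, ZMAT3, FDXR and DRAM1 lower in both, where 6.49% were. DRAM1 had 32.1 and 30.4 CPM with Dex and 56.1 and 52.0 CPM with vehicle (-0.78, edgeR adjusted p = 9.67e-09), and SESN1 had 11.97 and 10.3 CPM with Dex and 5.61 and 5.65 CPM with vehicle (0.99, edgeR adjusted p = 4.59e-06). AEN had 87.6 and 93.3 CPM with Dex and 66.1 and 63.2 CPM with vehicle (0.48, edgeR adjusted p = 2.38e-07), and TP53INP1 had 78.1 and 85.1 CPM with Dex and 53.1 and 61.1 CPM with vehicle (0.51, edgeR adjusted p = 0.000797). BTG2 had 168 and 162 CPM with Dex and 221 and 219 CPM with vehicle (-0.41), and ZMAT3 had 194 and 205 CPM with Dex and 252 and 277 CPM with vehicle (-0.41). The Dex and vehicle libraries of these genes did not overlap. MDM2 was the fourth member called higher here, with 139 and 137 CPM with Dex and 118 and 127 CPM with vehicle (0.17, edgeR adjusted p = 0.044). That call was lost without vehicle replicate 1 (0.297), Dex replicate 1 (0.206) or Dex replicate 2 (0.106), by DESeq2 (0.0651), with no filter on low counts (0.0839) and with only the compared groups fitted (0.0976). CD22 (-0.90), PAX5 (-0.74), MS4A1 (-0.44) and CD79B (-0.44) were again lower and BLK (0.43) higher among the 8 B cell markers. FAS lost its call here without vehicle replicate 2 (adjusted p 0.187) or Dex replicate 2 (0.143). FDXR lost it without any 1 of the 4 libraries (0.117 and 0.084 without vehicle replicates 1 and 2, 0.285 and 0.0561 without Dex replicates 1 and 2) and, in the panel, without Dex replicate 2 (0.424).

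At 1 h Dex had already lowered BTG2 and CDKN1A, and AEN was called higher, where 0.244% of all genes were lower and 0.362% higher. BTG2 had 115 CPM in both Dex libraries and 216 and 195 CPM in vehicle (-0.84 ± 0.0545, edgeR adjusted p = 1.24e-12). CDKN1A had 176 and 179 CPM with Dex and 231 and 237 CPM with vehicle (-0.40, edgeR adjusted p = 0.000126). AEN had 98.5 and 98.6 CPM with Dex and 75.8 and 80.2 CPM with vehicle (0.34), with an adjusted p of 0.0902 without vehicle replicate 1.

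**Figure D5:**
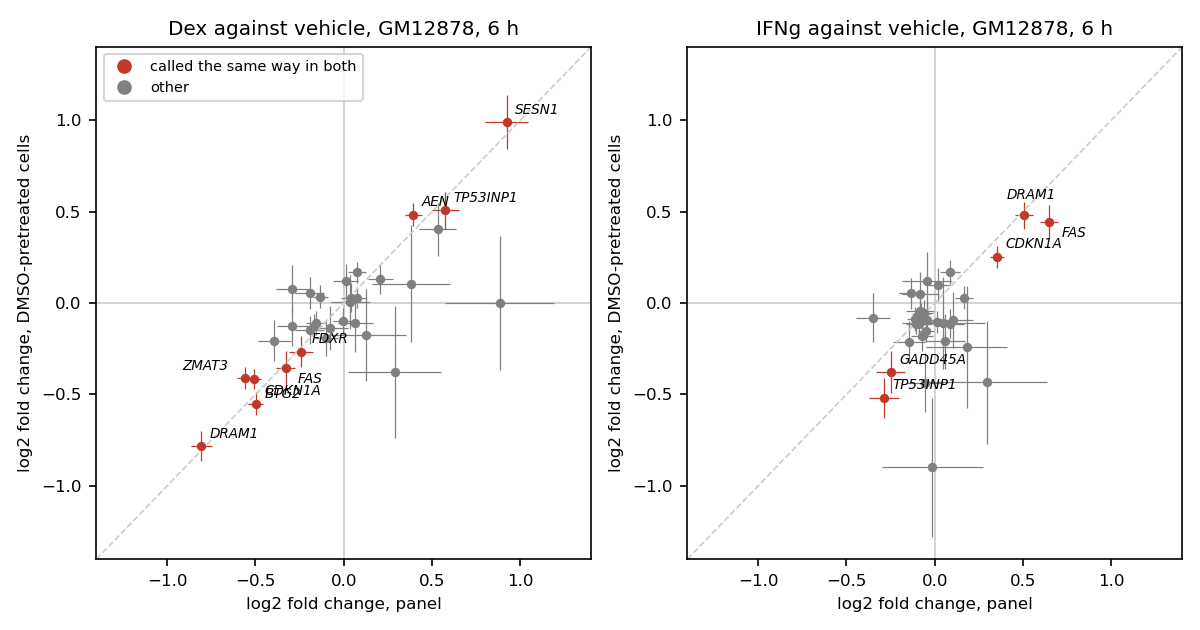
Log2 fold change of 32 p53 target genes at 6 h with Dex (left panel) and IFNg (right panel) in DMSO-pretreated cells (vertical axis) and in the stimulus panel (horizontal axis), with standard errors as bars; PLK2 and GDF15 are left out for low counts. Red marks genes called the same way in both experiments: under Dex they run from DRAM1 at the lower left to SESN1 at the upper right, and under IFNg FAS, DRAM1 and CDKN1A lie at the upper right.

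Interferon gamma called 4 members higher and 3 lower in the panel, where 7.11% and 4.75% of all genes were. FAS had 111 and 107 CPM with IFNg, 71.5 and 67.8 CPM with DMSO, and 66.1 and 72.2 CPM with PBS (log2 fold change 0.65 ± 0.0491, edgeR adjusted p = 3.14e-12). DRAM1 had 78.4 and 82.3 CPM with IFNg, 55.3 and 55.8 CPM with DMSO, and 57.8 and 57.7 CPM with PBS (0.50, edgeR adjusted p = 4.38e-09). CDKN1A had 383 and 352 CPM with IFNg, 277 and 279 CPM with DMSO, and 305 and 289 CPM with PBS (0.35, edgeR adjusted p = 2.74e-08). In all 3 genes the IFNg libraries lay above every vehicle library, and MDM2 was not called, with 118 and 126 CPM with IFNg (-0.08), but was called lower against DMSO alone (-0.23, adjusted p 0.0113). The remaining 4 calls (AEN, TIGAR, TP53INP1 and GADD45A) were each lost without at least 1 library, with an adjusted p between 0.0537 and 0.398.

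In DMSO-pretreated cells IFNg for 6 h again called FAS, DRAM1 and CDKN1A higher and TP53INP1 and GADD45A lower, where 3.47% of all genes were higher and 3.15% lower. In both experiments together 3.04% of all genes were called higher and 2.01% lower. DRAM1 had 74.6 and 75.7 CPM with IFNg and 56.1 and 52.0 CPM with vehicle (0.48, edgeR adjusted p = 5.7e-05) and was the 1 call that held in every alternative. FAS had 81.6 and 109 CPM with IFNg and 65.4 and 75.3 CPM with vehicle (0.44), with an adjusted p of 0.129 without IFNg replicate 2. CDKN1A had 314 and 337 CPM with IFNg and 282 and 264 CPM with vehicle (0.25), with 0.0855 without IFNg replicate 2 and 0.119 without vehicle replicate 2. TP53INP1 (-0.52) had 0.0606 without IFNg replicate 1 and 0.0848 without vehicle replicate 2, and GADD45A (-0.38) had 0.12 to 0.174 without any 1 of the 4 libraries. At 1 h CDKN1A was called higher (0.27) and BTG2 lower (-0.25), where 0.435% of all genes were higher and 0.079% lower. CDKN1A lost that call without any 1 of the 4 libraries (0.078 to 0.598), and BTG2 lost it without vehicle replicate 1 (0.919) or IFNg replicate 1 (0.138) or 2 (0.273).

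Whether BRM014 altered the response to Dex or IFNg at 6 h was tested as an interaction. For Dex, SESN1 had an interaction of -0.83 ± 0.200 on the log2 scale (edgeR adjusted p = 0.0137) and RRM2B of 0.40 ± 0.111 (edgeR adjusted p = 0.0416), where 1.72% of all genes had a called negative and 1.04% a called positive one. SESN1 had 11.8 and 12.2 CPM with Dex and 11.0 and 10.54 CPM with vehicle after BRM014, against 11.97 and 10.3 CPM with Dex and 5.61 and 5.65 CPM with vehicle after DMSO. After BRM014 both groups thus lay near the Dex level of DMSO-treated cells. The SESN1 interaction lost its call without vehicle replicate 2 of DMSO (0.0577), Dex replicate 1 of DMSO (0.135), vehicle replicate 1 of BRM014 (0.0654) or Dex replicate 1 of BRM014 (0.0585), and that of RRM2B lost it without any 1 of the 8 libraries (0.0699 to 0.211). DESeq2 called neither (adjusted p 0.0712 for SESN1 and 0.114 for RRM2B). For IFNg edgeR called 0 members, with 0.198% of all genes called, 5 members and 1219 genes (8.03%) at an unadjusted p under 0.05, and 0 members by DESeq2. DRAM1 came nearest to a call, at -0.44 ± 0.108 (edgeR adjusted p = 0.0903). With BRM014 it was called higher in the vehicle arm (0.22) and lower in the IFNg arm (-0.22), and each call was lost in some alternative.

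The remaining stimuli of the panel left the members uncalled. For IL2 edgeR called 0 members (0.203% of all genes), with 2 members and 902 genes (5.72%) at an unadjusted p under 0.05. For TNF it called 0 members (0.019% of all genes), with 1 member and 792 genes (5.02%) at that level, and for LPS 0 members (0% of all genes), with 2 members and 776 genes (4.92%). DESeq2 called 0 members for IL2, TNF and LPS. Between the vehicles, MDM2 was called higher with DMSO, at 150.0 and 135 CPM, than with PBS, at 119 and 114 CPM (0.30 ± 0.0591, edgeR adjusted p = 0.0149), where 0.184% of all genes were higher and 0.254% lower. That call was lost without DMSO replicate 1 (0.384), PBS replicate 1 (0.0751) or PBS replicate 2 (0.0639). The Dox library was above all 4 of these vehicle libraries for MDM2.

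The members called in the other comparisons were spread over both sides of the Dox bound. With BRM014 in the 6 h vehicle arm 8 of the 22 members past 2-fold with Dox were lower and 3 higher, as were 5 and 2 of the other 12 members (20.1% and 18.4% of all genes). In HepG2 4 of the 22 were lower and 4 higher, as were 3 and 4 of the 12 (22.8% and 19.3% of all genes). With Dex in the panel 6 of the 22 were lower and 4 higher, as were 6 and 2 of the 12 (12.7% and 13% of all genes), and with IFNg 2 of the 22 were lower and 2 higher, as were 1 and 2 of the 12 (4.75% and 7.11%), in comparisons that share the vehicle libraries with Dox. DDB2 and TRIAP1 were called in none of the 21 tested comparisons. Several members overlap a gene on the opposite strand (CDKN1A with DINOL, FAS with ACTA2, TNFRSF10B with RHOBTB2, TP53INP1 with NDUFAF6, FBXO22 with NRG4, RPS27L with LACTB, POLH with GTPBP2 and MDM2 with the carboxypeptidase gene CPM). PLK3 does so with DYNLT4 and TP53I3 with FAM228B. The libraries mark the strand, but the labels do not state whether the counting used it, so the values of these genes may include reads of their partners. On the same strand, which cannot separate the reads, FAS overlaps STAMBPL1. MDM2, PHLDA3, SESN1, TIGAR, GLS2, DRAM1 and GDF15 also overlap annotated genes on their own strand.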

How the data were processed

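Polyadenylated RNA was read as strand-marked pairs, per the labels' protocols. The authors deposited RSEM expected counts (estimated counts per gene) and TPM for each library, per the file headers. STAR and hg38 stand beside RSEM in the submitters' processing notes, without versions. Each file held 59526 identifiers, of which 58780 were Ensembl genes and 746 others held 0 counts, and 58207 had a symbol. Symbols and coordinates came from GENCODE 44 on hg38. Between 2.51% and 4.80% of expected counts per library were not whole, and all were rounded before testing. CPM was computed with TMM factors (0.956 to 1.06 within an experiment).

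The stimulus panel, the pretreatment experiment and HepG2 were fitted separately in R 4.3.3 with edgeR 4.0.16 (filterByExpr, robust quasi-likelihood test, all groups of an experiment in 1 fit, Benjamini-Hochberg adjustment over 15775, 15183 and 13349 genes, calls at 0.05); the difference between lines used pretreatment and HepG2 together. Dox, with 1 library, was described by log2(CPM + 1) against the mean of the 4 vehicle libraries, past 2-fold. Panel stimuli were set against DMSO and PBS together, because no label pairs a stimulus with its vehicle. The scripts were tested on simulated counts. No 2 libraries held identical values, and replicates differed beyond sampling noise (lowest chi-square per degree of freedom 2.52).

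The members, role groups and other lists were chosen with earlier results of these data known. Values in every library are given for CDKN1A and MDM2 and for up to 4 members with the largest rise and fall per comparison among called members with at least 1 CPM (Dox: the 8 largest ratios); others stand where a role group or call is described, and some members under this rule whose call an alternative ended are given by fold or count only. Of the other lists up to 3 called genes per comparison are named, plus MDM4, SMARCA4 and SMARCA2; 1 further gene of the rule is not reported here. Alternatives were DESeq2 size factors, DESeq2 1.42.0, no filter on low counts, only the compared groups, either vehicle alone, a replicate block, each library left out and, for Dox, a pseudocount of 0.1 CPM and a 1.5-fold bound. After the data were seen, the comparison of 6 h with 1 h and, in HepG2, a crossed replicate block were added. Same-numbered libraries did not deviate together (correlations of deviations -0.061 to 0.121 in the panel, -0.15 to 0.153 in the pretreatment experiment and -0.161 in HepG2), so numbers were not taken as pairs.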

Additional observations from a re-analysis of the deposited data

Results flagged for a closer look

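Each effect here, apart from that of BTG2, differed between groups by a direct test (edgeR quasi-likelihood, adjusted over all genes), given as a difference of log2 fold changes. The effect of Dex at 6 h differed between BRM014-treated and DMSO-treated cells for SESN1 (-0.83) and RRM2B (0.40), though DESeq2 called neither, SESN1 lost the call without any of 4 single libraries (adjusted p up to 0.135) and RRM2B without any 1 of 8 (up to 0.211). The effect of BRM014 differed between HepG2 at 24 h and GM12878 at 6 h for PLK3 (2.77), CDKN1A (1.35), TP53I3 (1.35), ZMAT3 (0.78), TIGAR (0.62), SESN2 (0.53), RRM2B (0.51), GADD45A (0.49), RPS27L (-0.64) and SESN1 (-1.05). Of these, TIGAR lost the call without HepG2 BRM014 replicate 1 (adjusted p 0.0749) or 2 (0.0527), HepG2 DMSO replicate 2 (0.194), GM12878 BRM014 replicate 1 (0.156) or GM12878 DMSO replicate 2 (0.061). Without HepG2 BRM014 replicate 1 the adjusted p was 0.281 for SESN2, 0.549 for RRM2B and 0.223 for GADD45A. RRM2B also lost the call without HepG2 DMSO replicate 1 (0.0591), and GADD45A without HepG2 DMSO replicate 2 (0.0562) or GM12878 BRM014 replicate 2 (0.0731).

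The effect of BRM014 in GM12878 differed between 6 h and 1 h for 14 members. The comparison was prompted by BTG2, whose difference is therefore a description. It was more negative at 6 h for BTG2 (-0.95), ACER2 (-0.73), TIGAR (-0.60), FAS (-0.52), PHLDA3 (-0.48), CDKN1A (-0.44), PLK3 (-0.44), CCNG1 (-0.18) and TNFRSF10B (-0.17). It was more positive at 6 h for SESN1 (0.62), FDXR (0.38), ASCC3 (0.25), XPC (0.24) and FBXO22 (0.21). ACER2 and FBXO22 lost the call when single libraries were left out, with an adjusted p as high as 0.179 for ACER2 without the 1 h BRM014 and Dex library numbered 2, and 0.0949 for FBXO22 without the 6 h BRM014 and vehicle library numbered 2.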

How the results depend on the processing

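Counts of called members, with the reported count in parentheses, moved by over 1.5 times under these alternatives. DESeq2 called 4 members for IFNg in the panel (7), 9 for BRM014 in HepG2 (15) and 0 for Dex by BRM014 (2), where DESeq2 size factors left 1. With no filter on low counts 7 were called for BRM014 in the IFNg arm at 1 h (4), 2 for DMSO against PBS (1) and 1 for IFNg by BRM014 (0). With only the compared groups fitted, 1 was called for IFNg at 6 h in DMSO-treated cells (5) and 0 for DMSO against PBS (1). Leaving out 1 library moved these counts by over 1.5 times at its lowest or highest: 4 to 6 for IFNg in the panel (7; 4 without DMSO replicate 1 or either IFNg library), 0 to 1 for DMSO against PBS (1; 0 without DMSO or PBS replicate 1), 3 to 7 for BRM014 in the vehicle arm at 1 h (8; 3 without DMSO or BRM014 replicate 2 and 5 without DMSO replicate 1), 2 to 5 in the IFNg arm at 1 h (4; 2 without BRM014 replicate 1) and 11 to 16 at 6 h (18; 11 without DMSO or BRM014 replicate 2), 0 to 1 for IFNg in DMSO-treated cells at 1 h (2; any library) and 3 to 4 at 6 h (5; 3 without vehicle replicate 2 or IFNg replicate 1), 0 to 1 for Dex by BRM014 (2; any library) and for IFNg by BRM014 (0; 1 without DMSO and IFNg replicate 2), and 6 to 10 for the difference between lines (10; 6 without HepG2 BRM014 replicate 1). The other counts moved by less: 13 to 19 for Dex in the panel (18), 13 to 18 for BRM014 in the vehicle arm at 6 h (18), 6 and 15 to 17 in the Dex arm at 1 h and 6 h (7 and 22), 12 to 14 in HepG2 (15), 2 to 3 and 7 to 9 for Dex in DMSO-treated cells (3 and 10) and 12 to 17 for 6 h minus 1 h (14). With the replicate block 13 members were called in HepG2 and 19 for BRM014 in the 6 h vehicle arm; the crossed block in HepG2, chosen after the data were seen, called 22. Past 2-fold with Dox (22) were 23 with a pseudocount of 0.1 CPM (1.26% of all genes) or PBS alone (0.444%), 32 past 1.5-fold (1.44%), and 21 to 22 without 1 vehicle library. Single members were followed in 184 values, namely 164 calls and 20 values of CDKN1A or MDM2 that were not called; over these and the alternatives 1876 kept their side of the threshold, 263 calls were lost, 3 were gained (all of MDM2) and 0 changed direction. With 1 Dox library, no spread between Dox-treated cultures can be given, and under about 10 counts per library (PLK2 and GDF15 in GM12878) folds could not be resolved. The HepG2 fold of SPATA18 also rests on few counts in BRM014 replicate 2.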
